A study of Arabidopsis thaliana with 12 samples.

Results

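In the inflorescence stems of Arabidopsis thaliana, 85 genes were much higher in wild type than in every mutant that was sequenced with it. The stems came from 2-month-old plants of 4 genotypes in the Col-0 background, with 3 libraries each. The mutants were the double mutant ccr1-3/fer4 (ccrfer), a line labelled fer4 (fer) and ccr1-3 (ccr), and the reference was wild type (WT). CCR1 encodes cinnamoyl-CoA reductase, an enzyme that makes the alcohols from which lignin is built, and FER encodes FERONIA, a receptor kinase of the plasma membrane that responds to the state of the cell wall. The design text gives the purpose as finding out how far a loss of FERONIA alters genes that respond in the ccr mutant. The genotype entries of ccrfer replicates 2 and 3 name other fer allele numbers than the titles do, and the titles were used here. Whether a library held 1 plant or several is not given in the sources used here, so a p-value below measures only the spread between these libraries.

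The 85 genes were chosen by their FPKM in WT against each mutant. A gene belonged to the set when its WT mean of log2(FPKM + 1) exceeded the mean of each mutant by 2 or more, which is 4-fold on the FPKM + 1 scale, and when every WT library lay above the other 9. FPKM is a fragment count set in proportion to the length of the transcript and to the size of the library. The rule was applied to the 18428 genes, of 27655 in the table, that reached FPKM 1 in 3 libraries or more. It left out chloroplast genes and 6 genes by name, 5 of which met the values, so 90 genes met them in all. These WT differences chose the genes, and they are given below as a description with no test. Among the tested genes, 15.5% had every WT library above the other 9, and 0.488% also had the margin. Without the exclusions, the same rule turned round found 126 genes low only in WT. Applied to each mutant in turn, it found 4 genes high only in ccrfer, 52 high only in the libraries labelled fer and 15 high only in ccr.

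The libraries labelled fer did not match their label at the targeted gene. FER (AT3G51550) was at FPKM 0.894, 0.159 and 1.49 in the ccrfer libraries and at 85.1, 83.1 and 84.0 in the libraries labelled fer, against 85.9, 83.5 and 83.0 in WT. They are therefore called by their label throughout. With those libraries left out of the rule, 112 genes were high in WT alone. All 85 genes were among them, which was certain in advance because leaving out a group only removes a condition. CCR1 (AT1G15950) was at FPKM 188 to 220.0 in ccr and 222 to 256 in WT. Where the ccr1-3 mutation lies relative to the counted sequence was not analysed here.

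Reads per library numbered between 56884740 and 227159338, of which 91.4% to 94.2% mapped. Library ccrfer replicate 3 stood furthest out: it listed 9582 genes at 0, against 6064 to 8216 in the other 11, and AT2G01021 reached FPKM 45932600 in it. AT2G01021 was also high in labelled fer replicates 1 to 3 (1429630, 15147300 and 8613970) and in ccrfer replicate 1 (6128100). It was at 113705 in ccrfer replicate 2 and at most 410312 in ccr and WT. Genes at 0 numbered 8216 and 7625 in labelled fer replicates 2 and 3 and 7101 in ccrfer replicate 1. Library ccrfer replicate 3 also listed 28 of the 85 genes at 0, against 5 to 14 in the other mutant libraries. Summed marker genes of cell types differed between genotypes. Markers of the secondary wall and xylem (17 genes) summed to FPKM 1123 to 1139 in ccrfer, 488 to 504 in labelled fer and 602 to 614 in ccr, against 36.2 to 40.1 in WT. Cambium markers (6 genes) summed to 154 to 189, 152 to 154 and 139.9 to 146 in these mutants in the same order, against 45.9 to 48.1 in WT. Phloem markers (9 genes) went the other way, at 511 to 608 in ccrfer, 644 to 685 in labelled fer and 439 to 476 in ccr, against 839 to 882 in WT. Epidermis markers (8 genes) summed to 227 to 243 in ccrfer, 204 to 225 in labelled fer and 149 to 156 in ccr, against 106 to 112 in WT. Green tissue markers (12 genes) summed to 3197 to 4196, 7013 to 7719 and 3623 to 3950 in ccrfer, labelled fer and ccr, against 4008 to 4388 in WT. Seed markers (11 genes) summed to 182 to 196 in labelled fer and to at most 7.98 in every library of the other genotypes. Suberin and root markers (12 genes) summed to 6.92 to 36.6 and flower and pollen markers (12 genes) to at most 5.42 across all libraries. None of the 85 genes was in these marker lists. The part of these differences in the results below was not tested, and in whole stems fewer cells of a type and less RNA per cell cannot be told apart.

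Some named genes of the set belong to pathways that are outlined here as background. Plants short of phosphate induce transporters, secreted phosphatases and enzymes that replace membrane phospholipids with galactolipids and sulfolipids. The transcription factor PHR1 drives much of this response through a short element called P1BS, and proteins with an SPX domain hold PHR1 back when phosphate is ample. Developmental cell death and leaf or stem senescence use vacuolar and secreted proteases, nucleases and lipases, and senescing organs export nitrogen, phosphate and sugars. The circadian clock is a loop in which the morning factors CCA1 and LHY repress evening genes through the evening element, while pseudo-response regulators such as PRR5 repress CCA1 and LHY. The groups used below were assigned by hand after the values had been seen: 8 genes of phosphate supply, 10 of cell death and hydrolysis, 7 of transport and nitrogen, 5 of day timing and flowering, 5 transcription regulators, 4 kinases, 6 redox proteins and 2 chloroplast or sulfur proteins. The other 38 had mixed or unknown annotations, and 11 of these were annotated as uncharacterized or hypothetical.

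Promoters of 5 of the genes are shown first because they hold the 2 elements named above. Each is the stretch of 250 bases before the annotated start of the gene, read 5′ to 3′ on the gene's strand from the RefSeq genome TAIR10.1. Capitals mark the evening element (AAAATATCT on either strand) in the first 4 and P1BS (GNATATNC) in the last. The windows are chr5:8358547-8358796 on the minus strand for PRR5, chr1:25508389-25508638 on the plus strand for FKF1, chr2:9266558-9266807 on the minus strand for GRP7, chr3:9827432-9827681 on the plus strand for CCL and chr3:350011-350260 on the minus strand for GDPD1.
PRR5: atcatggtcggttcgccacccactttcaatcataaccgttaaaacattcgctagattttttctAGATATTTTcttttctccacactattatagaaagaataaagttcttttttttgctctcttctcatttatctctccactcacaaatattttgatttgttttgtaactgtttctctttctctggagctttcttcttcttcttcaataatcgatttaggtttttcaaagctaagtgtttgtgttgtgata
FKF1: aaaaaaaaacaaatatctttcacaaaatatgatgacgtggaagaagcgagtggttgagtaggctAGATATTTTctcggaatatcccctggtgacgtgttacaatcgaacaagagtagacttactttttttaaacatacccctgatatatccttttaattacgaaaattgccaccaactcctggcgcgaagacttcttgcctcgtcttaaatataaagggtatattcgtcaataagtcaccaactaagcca
GRP7: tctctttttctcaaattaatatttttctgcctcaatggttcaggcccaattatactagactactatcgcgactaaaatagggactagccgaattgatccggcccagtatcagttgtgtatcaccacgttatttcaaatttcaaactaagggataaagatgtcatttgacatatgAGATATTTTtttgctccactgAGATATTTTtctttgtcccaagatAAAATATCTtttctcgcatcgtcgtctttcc
CCL: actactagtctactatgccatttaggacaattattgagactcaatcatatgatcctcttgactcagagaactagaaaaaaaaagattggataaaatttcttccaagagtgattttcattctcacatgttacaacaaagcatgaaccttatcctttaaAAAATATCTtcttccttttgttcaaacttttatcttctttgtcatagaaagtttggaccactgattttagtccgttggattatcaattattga
GDPD1: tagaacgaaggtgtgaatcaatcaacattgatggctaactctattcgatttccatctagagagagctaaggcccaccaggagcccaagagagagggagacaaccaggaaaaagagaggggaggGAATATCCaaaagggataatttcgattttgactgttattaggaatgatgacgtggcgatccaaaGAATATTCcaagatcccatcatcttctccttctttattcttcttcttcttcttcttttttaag
GRP7 held 3 evening elements, which began 76, 55 and 31 bases before the start, all within the last stretch of the window. PRR5 and FKF1 held theirs at almost the same distance, 187 and 186 bases before the start. CCL held its element 93 bases before the start, and GDPD1 held P1BS at 127 and 63 bases. Over windows that also take in the first 50 bases of the gene, the evening element stood in 4 of the 5 day-timing genes, and TSF was the one without it. In the whole set it stood in 9 of 85 windows, or 10.6%, against 3.06% of the 18264 tested genes with a window. The other 5 were RL6, RbcX1, MEE14, AT1G56300 and AT2G16365. P1BS stood in 10 of 85 windows, or 11.8%, against 6.25% of all, and in 3 of the 8 phosphate genes (GDPD1, PHT1;4 and GDPD2). Its other matches were in AT1G23110, AT3G44510, WCRKC1, FKF1, AT5G16740, AT3G61410 and AT1G08310, none of which is a phosphate gene by annotation. The short copper core GTAC stood in 34.1% of the windows, against 39.2% of all. The W-box core TTGAC stood in 44.7% against 50.8%, the G-box CACGTG in 8.24% against 8.88% and TATAAA in 62.4% against 50.7%. The tracheary element motif TERE stood in 0 of 85 windows, against 0.498% of all. All motifs were searched on both strands, FKF1 held both P1BS and the evening element, and a match is a stretch of letters and no measure of binding.

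**Figure D1:**
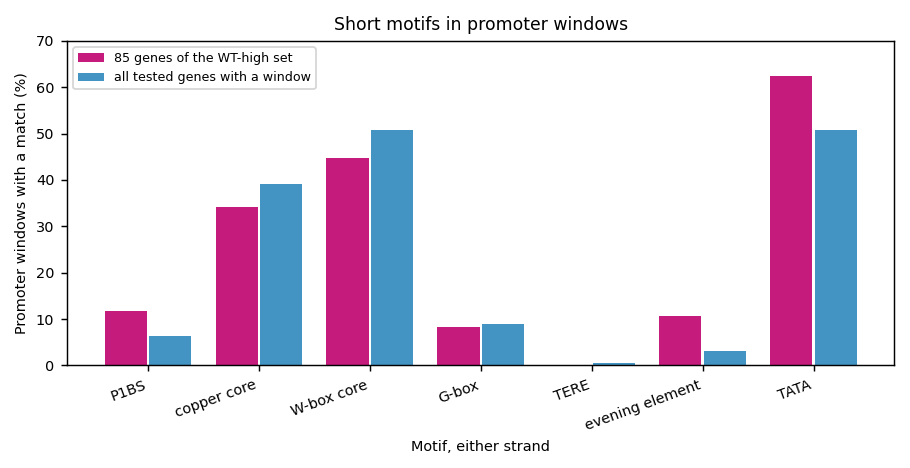
Share of promoter windows (250 bases before to 50 after the start, y axis in percent) that hold each of 7 short motifs (x axis), for the 85 genes and for all 18264 tested genes with a window. The evening element stood in 10.6% of the set against 3.06% of all, and P1BS in 11.8% against 6.25%.

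The set as a whole was low in the mutants by much more than the rule's margin for some genes and barely more for others. The median gene stood at 8.62% of its WT mean FPKM in ccrfer, 8.14% in labelled fer and 8.31% in ccr, and no gene stood above 24.3%. Median mean FPKM over the 85 genes was 1.63 in ccrfer, 1.91 in labelled fer and 1.76 in ccr, against 27.3 in WT. The 3 mutants were thus close in the median, while single genes differed between them. In WT, 8 genes averaged FPKM 100 or more, 57 between 10 and 100, and 20 under 10. The lowest WT library stood at 2.16 to 41.9 times the highest mutant library, with a median of 5.40, over the genes with any mutant reading above 0. Together the 85 genes made up 0.0882% to 0.119% of summed FPKM in ccrfer, 0.0544% to 0.0672% in labelled fer and 0.114% to 0.121% in ccr, against 0.728% to 0.822% in WT (AT2G01021 left out of the sums).

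The WT replicates were close to one another. The coefficient of variation over the 3 WT libraries had a median of 6.08% in the set, and a median of 5.53% among the 14153 tested genes in the same range of WT means. Expression in the mutants ranged from residual to none. In all 9 mutant libraries 36 genes stayed at FPKM 1 or more, 11 reached 1 in none of them, and 38 reached it in some. A zero appeared in at least 1 mutant library for 32 genes. None could appear in WT, because the rule placed every WT library above the other 9. The mutant with the highest mean was ccrfer for 29 genes, labelled fer for 30 and ccr for 24, and in 2 genes (AT4G03156 and AT4G08190) all mutants were at 0.

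**Figure D2:**
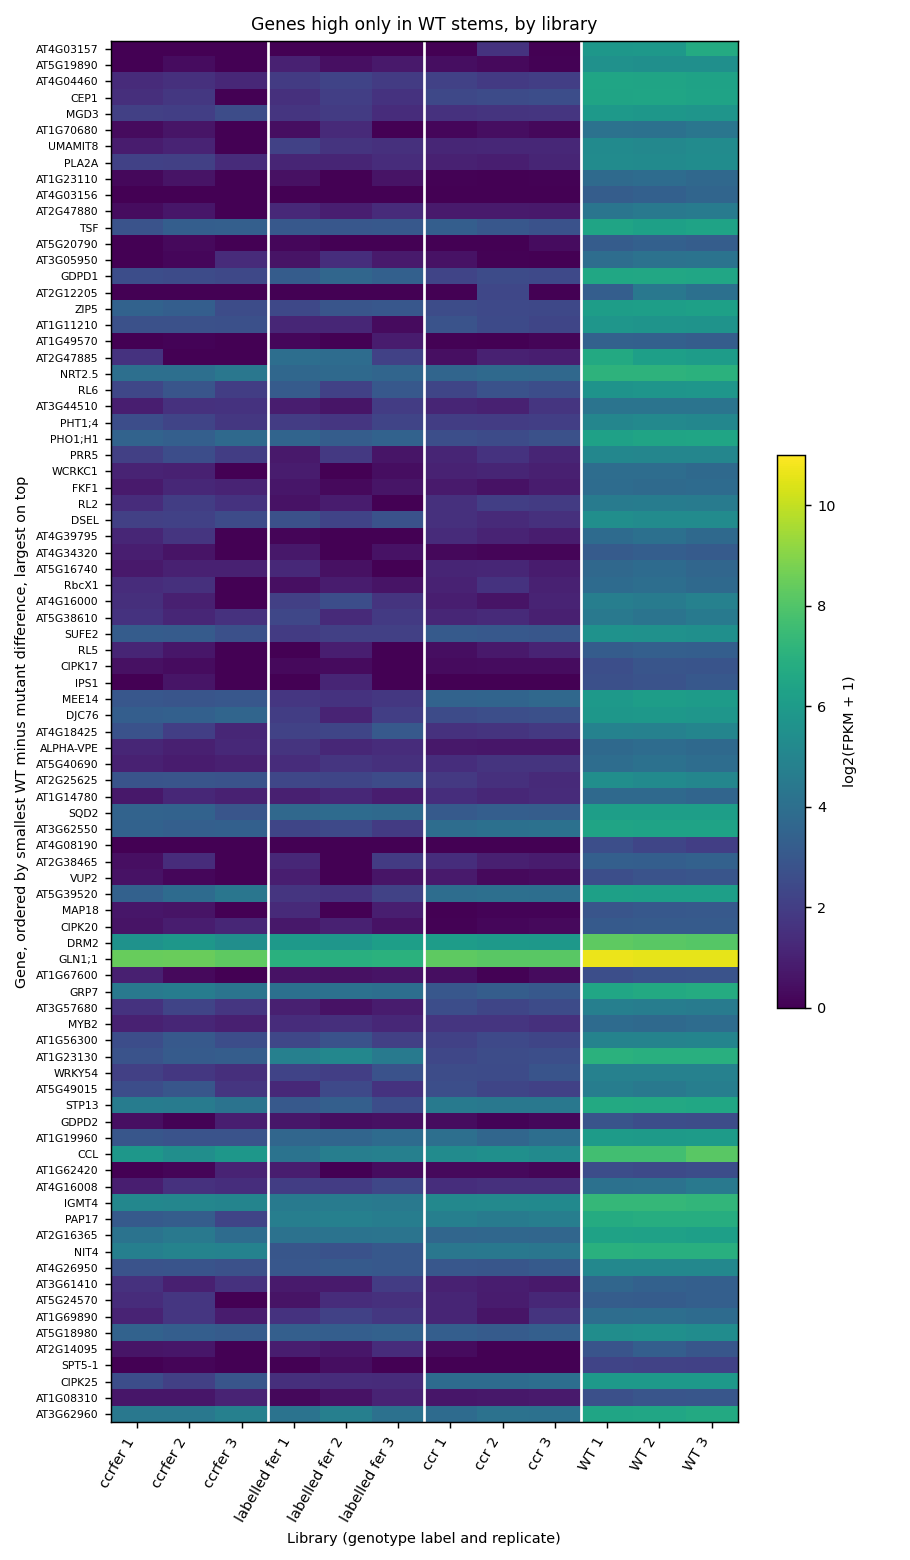
log2(FPKM + 1) of the 85 genes (rows, ordered by the smallest WT minus mutant difference, largest on top) in each of the 12 libraries (columns, ccrfer, labelled fer, ccr and WT). The WT columns are brighter in every row because the rule chose the genes so, and GLN1;1 is the brightest row, with a WT mean FPKM of 1571.5.

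Genes of phosphate supply and of the lipids that spare phosphate included some of the widest gaps. MGD3, a synthase of the galactolipids that stand in for phospholipids, had FPKM 3.23, 3.06 and 4.97 in ccrfer, 2.26, 2.77 and 1.64 in labelled fer and 1.94, 2.18 and 2.22 in ccr, against 60.7, 55.6 and 52.8 in WT. GDPD1, a glycerophosphodiester phosphodiesterase that frees phosphate from lipid head groups, had 4.99, 4.66 and 4.19 in ccrfer, 8.28, 11.5 and 9.31 in labelled fer and 3.84, 4.72 and 4.32 in ccr, against 91.6, 94.9 and 90.4 in WT. For both genes the mutant libraries lay far below WT, and for GDPD1 the libraries labelled fer lay above the other mutants. SQD2, which makes the sulfolipid, had 10.2, 10.08 and 6.37 in ccrfer, 12.3, 13.5 and 12.4 in labelled fer and 7.74, 8.67 and 8.44 in ccr, against 70.4, 69.8 and 70.3 in WT. Here ccrfer and ccr overlapped, and the labelled fer libraries were again the highest mutants.

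Carriers and relatives of the exporter PHO1 were in the set as well. PHT1;4, a phosphate importer of the plasma membrane, had FPKM 5.09, 3.81 and 2.48 in ccrfer, 2.84, 2.36 and 3.82 in labelled fer and 2.95, 2.84 and 3.11 in ccr, against 31.8, 35.1 and 33.0 in WT. All 3 mutants overlapped for this gene. PHO1;H1, a relative of the phosphate exporter PHO1, had 10.4, 8.96 and 12.5 in ccrfer, 10.8, 8.61 and 9.92 in labelled fer and 5.18, 4.74 and 5.70 in ccr, against 76.9, 84.4 and 86.1 in WT. It was lowest in every ccr library. IPS1, a non-coding RNA that mimics the target of the phosphate microRNA miR399, had 0, 0.525 and 0 in ccrfer, 0, 1.21 and 0 in labelled fer and 0 in all ccr libraries, against 5.42, 6.10 and 7.11 in WT. GDPD2, a relative of GDPD1, stayed under FPKM 1 in all mutants, against 4.97 to 6.30 in WT.

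PAP17, an acid phosphatase induced by phosphate shortage and in senescence, split the mutants. It had FPKM 7.58, 8.56 and 3.81 in ccrfer, 25.2, 26.8 and 24.0 in labelled fer and 25.7, 22.6 and 24.9 in ccr, against 109, 114 and 114 in WT. The ccrfer libraries lay below all 6 of the other mutant libraries. The difference was -1.79 (SE 0.19) on the log2(FPKM + 1) scale for ccrfer minus ccr and -1.84 (SE 0.19) for ccrfer minus labelled fer (limma, Benjamini-Hochberg adjusted p = 3.5e-05 and 1.5e-05).

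Of a list of 32 phosphate starvation genes, 26 were tested and 7 of these belonged to the set. The other 19 lay outside the set, among them SPX1 (AT5G20150), which met the values of the rule and was left out by name. The list was chosen with earlier results of these data known, so its counts are not independent evidence. By limma, 18 of the 19 were lower and 0 higher in ccrfer than in WT, 16 were lower and 1 higher in labelled fer, and 17 were lower and 0 higher in ccr. Without SPX1 the lower genes numbered 17, 15 and 16 of 18 in the same order. Over the 19, median differences from WT were -1.22, -0.84 and -1.52 on the log2(FPKM + 1) scale. Over all tested genes 47.8% were called in ccrfer minus WT (24.9% higher and 22.8% lower). In labelled fer minus WT 51.6% were called (28.4% higher and 23.2% lower), and in ccr minus WT 43.7% (24% higher and 19.8% lower). The medians over all tested genes were 0.00, 0.04 and 0.03. These comparisons share the WT libraries, so the counts are not independent of each other.

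SPX1, the inhibitor of PHR1, averaged FPKM 13.3 ± 4.1 in ccrfer, 18.6 ± 2.5 in labelled fer and 6.11 ± 0.60 in ccr, against 211 ± 29 in WT (SD, n = 3 each). The phosphatase PEPC1 averaged 11.3 ± 1.8 in ccrfer, 31.6 ± 4.7 in labelled fer and 4.50 ± 0.50 in ccr, against 89.1 ± 3.1 in WT (SD, n = 3 each). SPX3, a second SPX protein, differed from WT by -2.17 in ccrfer, -1.46 in labelled fer and -1.98 in ccr (limma, adjusted p = 2.6e-06, 6.5e-05 and 7.4e-06). AT5G03545 differed by -1.57, -1.85 and -3.50 in the same order (limma, adjusted p = 8.8e-09, 1.6e-09 and 1.8e-11). PHR1 itself moved little, by -0.17 in ccrfer, -0.23 in labelled fer and -0.13 in ccr (limma, adjusted p = 0.024, 0.0039 and 0.069). The exporter PHO1 was the 1 gene of the list higher in labelled fer, by 0.33 (limma, adjusted p = 9.4e-05), while it was lower in ccrfer and ccr.

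**Figure D3:**
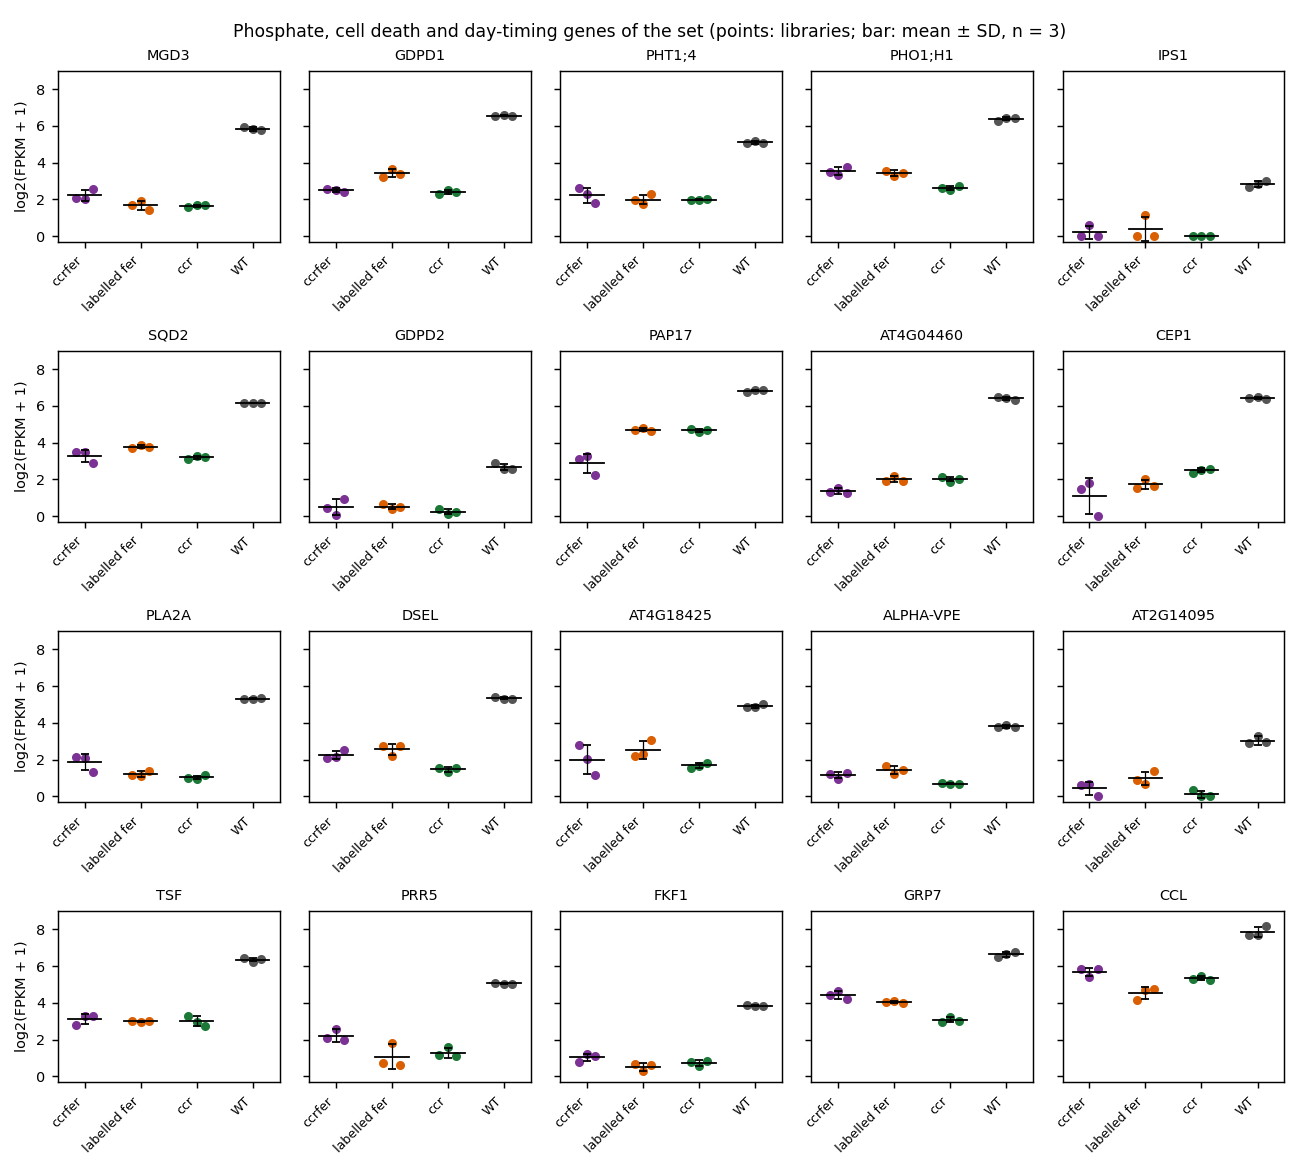
log2(FPKM + 1) (y axis) in each library of ccrfer, labelled fer, ccr and WT (x axis) for 20 genes of phosphate supply, cell death and day timing. Points are libraries and bars are means ± SD (n = 3). Every WT point lies above every mutant point, and the mutants split for PAP17 (lowest in ccrfer) and GRP7 (lowest in ccr).

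The group of cell death and hydrolysis, formed by hand, held 10 genes, of which 4 were on the cell death list. AT4G04460, annotated as a saposin-like aspartyl protease, had FPKM 1.53, 1.91 and 1.36 in ccrfer, 2.80, 3.64 and 2.74 in labelled fer and 3.37, 2.69 and 3.13 in ccr, against 87.7, 84.5 and 80.3 in WT. The cysteine endopeptidase CEP1 had 1.81, 2.48 and 0 in ccrfer, 1.88, 3.08 and 2.09 in labelled fer and 4.18, 4.76 and 4.97 in ccr, against 85.6, 88.7 and 82.1 in WT. Both stood at 5.42% of their WT means or less in every mutant. They were also lower in ccrfer than in ccr, with differences of -0.65 (SE 0.12) for AT4G04460 and -1.40 (SE 0.35) for CEP1 on the log2 scale (limma, adjusted p = 0.0029 and 0.015). For CEP1 the size rests on ccrfer replicate 3, where it was listed at 0: without that library the difference was -0.85. The call was lost without ccr replicate 3, where the difference was -1.35 (limma, adjusted p = 0.052). It was also lost with a pseudocount of 0.1, at -2.58, and with the AT2G01021 level as a covariate, at -0.78 (limma, adjusted p = 0.072 and 0.26).

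PLA2A, a patatin-like phospholipase, had FPKM 3.37, 3.18 and 1.54 in ccrfer, 1.21, 1.18 and 1.64 in labelled fer and 1.03, 0.909 and 1.20 in ccr, against 38.1, 37.8 and 39.4 in WT. Its ccrfer libraries lay above every ccr library, by 0.82 (SE 0.19) on the log2 scale (limma, adjusted p = 0.009). DSEL, a lipase of seedling establishment, had 3.25, 3.38 and 4.75 in ccrfer, 5.57, 3.62 and 5.80 in labelled fer and 1.88, 1.51 and 1.90 in ccr, against 41.9, 38.9 and 38.3 in WT. It was lowest in ccr, and labelled fer exceeded ccr by 1.10 (SE 0.16; limma, adjusted p = 0.00023). ALPHA-VPE, a vacuolar processing enzyme that matures other vacuolar proteins, had 1.29, 0.932 and 1.39 in ccrfer, 2.101, 1.33 and 1.65 in labelled fer and 0.643, 0.602 and 0.596 in ccr, against 12.6, 14.0 and 12.5 in WT.

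AT3G57680, annotated as a peptidase of family S41, ran the other way among the mutants. Its FPKM was 2.08, 3.71 and 2.29 in ccrfer, 0.952, 0.439 and 0.799 in labelled fer and 4.99, 3.86 and 4.75 in ccr, against 25.9, 24.1 and 23.2 in WT. The mutants did not overlap, and labelled fer minus ccr was -1.68 on the log2 scale (SE 0.18; limma, adjusted p = 1.4e-05). AT4G18425, a putative transmembrane protein, had 5.83, 3.12 and 1.26 in ccrfer, 3.51, 3.86 and 7.41 in labelled fer and 1.95, 2.14 and 2.55 in ccr, against 28.2, 27.6 and 31.2 in WT. Its ccrfer libraries spread widely enough to cover all ccr libraries. AT2G14095, an uncharacterized gene that stood on the cell death list used here, lay close to the margin at 0.541, 0.590 and 0 in ccrfer, 0.866, 0.588 and 1.61 in labelled fer and 0.264, 0.0166 and 0 in ccr, against 6.34, 8.81 and 6.69 in WT.

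Of the developmental cell death list, 19 genes were tested and 4 were in the set (AT4G04460, CEP1, AT4G18425 and AT2G14095). Among the other 15, 12 were lower and 3 higher in ccrfer than in WT, 11 lower and 3 higher in labelled fer, and 11 lower and 2 higher in ccr (limma). Without the 3 genes left out of the rule by name, 9 of 12 were lower in ccrfer, 8 in labelled fer and 8 in ccr. The medians of the 15 were -1.68, -1.72 and -1.55. Of all tested genes, 22.8%, 23.2% and 19.8% were lower and 24.9%, 28.4% and 24% higher in the same order. The genes that were higher included the xylem proteases XCP1 and XCP2, which clear the contents of dying xylem cells. XCP2 averaged FPKM 60.6 ± 4.1 in ccrfer, 55.3 ± 2.6 in labelled fer and 18.9 ± 0.11 in ccr, against 0.355 ± 0.056 in WT (SD, n = 3 each). Both are also on the secondary wall and xylem marker list whose sums are given above, and the part of that difference here was not tested. MC9 (a metacaspase), BFN1 (a nuclease) and CEP2 met the values of the rule and were left out of it by name. MC9 averaged 6.66 ± 3.7 in ccrfer, 23.1 ± 2.3 in labelled fer and 3.16 ± 0.56 in ccr, against 123 ± 5.1 in WT (SD, n = 3 each). CEP2 averaged 0.226 ± 0.31, 0.371 ± 0.41 and 0.850 ± 0.38 in ccrfer, labelled fer and ccr, against 50.02 ± 1.4 in WT (SD, n = 3 each).

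MYB2, an MYB transcription factor, was the 1 gene of the set on the senescence list, and the other 27 tested genes of that list lay outside the set. Of these 24 were lower and 1 higher in ccrfer than in WT, 22 lower and 1 higher in labelled fer, and 18 lower and 3 higher in ccr (limma), with medians of -1.37, -1.14 and -0.80. Without SAG12 and NAP, which the rule left out by name, 22, 20 and 16 of 25 were lower. Among all tested genes, 22.8%, 23.2% and 19.8% were lower and 24.9%, 28.4% and 24% higher. The protease SAG12, a late senescence marker left out of the set by name, averaged FPKM 44.9 ± 2.8 in ccrfer, 6.52 ± 1.1 in labelled fer and 31.6 ± 1.5 in ccr, against 327 ± 8.8 in WT (SD, n = 3 each). The senescence regulator NAP differed from WT by -3.41 in ccrfer, -4.04 in labelled fer and -1.47 in ccr, so it missed the margin in ccr (limma, adjusted p = 1e-09, 1.9e-10 and 2.1e-06). NAC6, another such regulator, differed by -1.64, -3.20 and -1.84 and NAC3 by -1.40, -2.25 and -2.13 in the same order (limma, adjusted p at most 0.00033). None of 14 autophagy genes was in the set, and 7, 10 and 10 of them were lower and 0 higher in ccrfer, labelled fer and ccr than in WT. ATG8E differed by -1.15, -1.10 and -0.84 (limma, adjusted p = 1.7e-06, 1.9e-06 and 2.8e-05).

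Carriers and enzymes of nitrogen and sugar included the most abundant gene of the set. GLN1;1, a cytosolic glutamine synthetase that fixes ammonium for export, had FPKM 348, 357 and 308 in ccrfer, 124, 121 and 130.1 in labelled fer and 311, 290.5 and 287 in ccr, against 1627, 1541 and 1546 in WT. All libraries labelled fer lay below all other mutants, and labelled fer minus ccr was -1.24 (log2, SE 0.07; limma, adjusted p = 4.2e-08). NRT2.5, a high-affinity nitrate transporter, had 15.2, 15.4 and 19.5 in ccrfer, 11.8, 12.6 and 11.2 in labelled fer and 10.9, 12.5 and 12.2 in ccr, against 138, 137 and 129.7 in WT. Here ccrfer was the highest mutant, by 0.45 (SE 0.10) over ccr and over labelled fer alike (limma, adjusted p = 0.0051 and 0.0026).

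NIT4, a nitrilase that acts on the cyanide product beta-cyanoalanine, had FPKM 26.0, 29.0 and 28.5 in ccrfer, 6.79, 5.80 and 7.07 in labelled fer and 19.8, 20.1 and 18.9 in ccr, against 124, 121 and 122 in WT. STP13, a hexose importer, had 23.6, 23.0 and 17.3 in ccrfer, 7.36, 8.95 and 5.02 in labelled fer and 21.6, 20.4 and 20.1 in ccr, against 101, 99.7 and 93.0 in WT. Both were lowest in the libraries labelled fer with no overlap. The ccrfer minus labelled fer difference was 1.94 (SE 0.07) for NIT4 and 1.48 (SE 0.16) for STP13 on the log2 scale (limma, adjusted p = 4.2e-09 and 2e-05). The zinc transporter ZIP5 had 9.96, 8.70 and 4.97 in ccrfer, 4.22, 6.43 and 6.83 in labelled fer and 4.83, 4.45 and 4.29 in ccr, against 67.7, 71.8 and 75.3 in WT. UMAMIT8, of a family of amino acid exporters, had 0.765, 1.11 and 0 in ccrfer, 3.33, 2.19 and 1.92 in labelled fer and 1.25, 1.33 and 1.33 in ccr, against 37.2, 34.5 and 39.0 in WT. It was highest among mutants in labelled fer, at -1.15 (SE 0.24) for ccrfer minus labelled fer (limma, adjusted p = 0.0026).

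The lists around these genes did not move as a block. Of 25 tested nitrogen genes, 2 were in the set, and of the other 23, 13 were lower and 5 higher in ccrfer than in WT, 11 lower and 8 higher in labelled fer, and 12 lower and 7 higher in ccr (limma). Their medians were -0.37, -0.12 and -0.40. The shares of all tested genes were 22.8%, 23.2% and 19.8% lower and 24.9%, 28.4% and 24% higher in the same order. The urea transporter DUR3 differed from WT by -1.80, -1.86 and -1.71 in ccrfer, labelled fer and ccr (limma, adjusted p at most 5.1e-09). ASN2 and GDH3, an asparagine synthetase and a glutamate dehydrogenase, were higher in all mutants: ASN2 by 1.23, 1.98 and 1.31 and GDH3 by 1.13, 1.85 and 1.49 (limma, adjusted p at most 1.1e-05). GLN1;4, a paralogue of GLN1;1, averaged FPKM 219 ± 7.4 in ccrfer, 52.4 ± 3.5 in labelled fer and 143 ± 4.8 in ccr, against 369 ± 15 in WT (SD, n = 3 each). Of 16 tested sugar-status genes 2 were in the set, STP13 and the dormancy-associated gene DRM2. DRM2 had FPKM 47.6, 55.9 and 42.4 in ccrfer, 59.6, 53.5 and 70.4 in labelled fer and 67.3, 59.1 and 57.8 in ccr, against 307, 294 and 273 in WT. Its labelled fer libraries overlapped both other mutants. Of the other 14, 8 were lower and 1 higher in ccrfer than in WT, 9 lower and 1 higher in labelled fer, and 6 lower and 1 higher in ccr (limma), with medians of -0.39, -0.50 and -0.24.

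Genes that follow the time of day formed a small group, with mean FPKM in WT from 13.4 for FKF1 to 232 for CCL. PRR5, the clock repressor, had FPKM 3.19, 5.09 and 3.01 in ccrfer, 0.671, 2.59 and 0.535 in labelled fer and 1.22, 2.07 and 1.18 in ccr, against 33.4, 32.4 and 32.1 in WT. FKF1, a blue-light F-box protein that promotes flowering in long days, had 0.752, 1.32 and 1.13 in ccrfer, 0.578, 0.216 and 0.538 in labelled fer and 0.757, 0.465 and 0.769 in ccr, against 13.6, 13.2 and 13.4 in WT. For both the ccrfer mean was the highest of the mutants. FKF1 was higher in ccrfer than in labelled fer by 0.52 (SE 0.16; limma, adjusted p = 0.023) on the log2 scale. PRR5 was higher in ccrfer than in ccr by 0.93 (SE 0.29; limma, adjusted p = 0.041). That PRR5 call was lost when ccrfer replicate 1 or 2, ccr replicate 1 or 3, or any WT replicate was left out, with differences between 0.74 and 1.01. It was lost as well with a pseudocount of 0.1, without the filter, with the AT2G01021 covariate and with the mutant libraries alone (limma, adjusted p = 0.074, 0.065, 0.16 and 0.095).

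GRP7, an RNA-binding protein under clock control whose synonym CCR2 has nothing to do with cinnamoyl-CoA reductase, had FPKM 20.9, 23.8 and 17.8 in ccrfer, 15.7, 16.1 and 14.9 in labelled fer and 6.94, 8.40 and 7.10 in ccr, against 90.4, 102 and 107 in WT. The mutants were ordered without overlap, and ccrfer minus ccr was 1.36 (SE 0.11; limma, adjusted p = 2.6e-06). CCL, a rhythmic gene named for its likeness to that clock-regulated family, had 55.9, 42.1 and 56.0 in ccrfer, 17.0, 24.8 and 26.3 in labelled fer and 38.2, 43.8 and 37.5 in ccr, against 205, 204 and 287 in WT. TSF, a close relative of the flowering signal FT, had 6.10, 8.81 and 8.95 in ccrfer, 7.05, 6.86 and 7.09 in labelled fer and 8.89, 6.90 and 5.78 in ccr, against 86.0, 75.2 and 81.7 in WT. For TSF all mutants overlapped.

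The other clock genes did not all move with PRR5. Of 9 tested clock genes outside the set, 6 were lower and 3 higher in ccrfer than in WT, 5 lower and 3 higher in labelled fer, and 6 lower and 3 higher in ccr (limma). The 3 that were higher in each comparison were the morning genes LHY, CCA1 and RVE8. LHY averaged FPKM 136 ± 5.0 in ccrfer, 337 ± 7.7 in labelled fer and 199.9 ± 2.0 in ccr, against 41.4 ± 2.3 in WT (SD, n = 3 each). RVE8 averaged 40.4 ± 5.3 in ccrfer, 121 ± 2.4 in labelled fer and 67.8 ± 1.1 in ccr, against 26.2 ± 2.8 in WT (SD, n = 3 each). GI, an evening gene that acts with FKF1, differed from WT by -1.27 in ccrfer, -1.48 in labelled fer and -1.47 in ccr, and ELF4 by -1.74, -1.38 and -1.75 (limma, adjusted p at most 0.0005). TOC1, PRR7 and PRR9 were also lower in each mutant. Of all tested genes, 22.8% were lower and 24.9% higher in ccrfer, 23.2% and 28.4% in labelled fer, and 19.8% and 24% in ccr. The time of day at which stems were taken is not given in the sources used here, so the order of sampling and the genotype cannot be told apart for these genes.

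**Figure D4:**
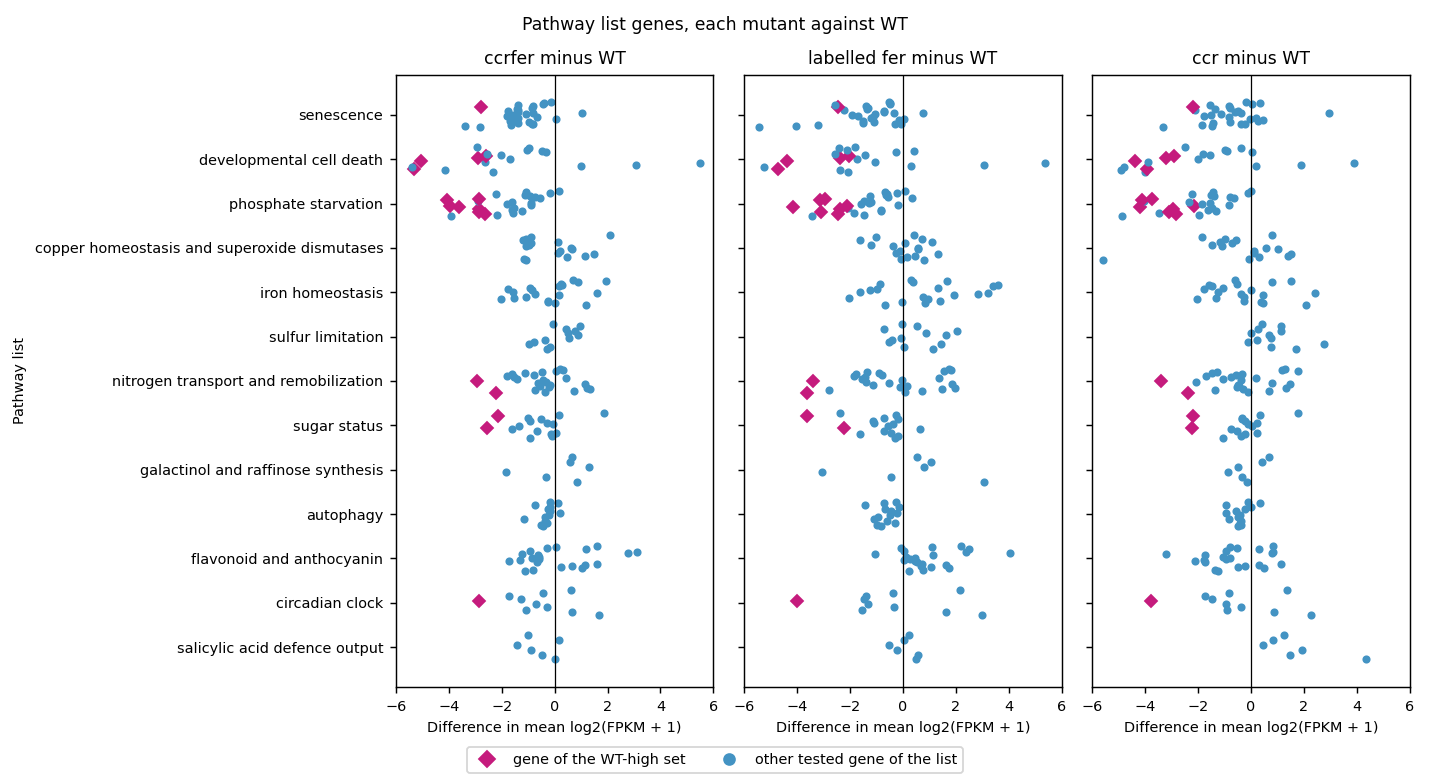
Difference in mean log2(FPKM + 1) from WT (x axis) of every tested gene of 13 pathway lists (y axis), in ccrfer, labelled fer and ccr (panels from left to right). Diamonds are genes of the set, which the rule placed at -2 or lower, and circles are the other genes, most of them below 0 for phosphate starvation, cell death and senescence.

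Of the 13 lists, 7 held no gene of the set, autophagy among them. The other 6 of these held both higher and lower genes across the mutants, though some went mainly in a single direction within a mutant. Counts are given for ccrfer, labelled fer and ccr against WT in that order (limma). The matching shares of all tested genes were 22.8%, 23.2% and 19.8% lower and 24.9%, 28.4% and 24% higher. Of 17 copper and superoxide dismutase genes, 7, 3 and 8 were lower and 6, 7 and 5 higher, and of 20 iron genes 7, 6 and 8 were lower and 6, 11 and 5 higher. FSD1, the iron superoxide dismutase, differed by -1.08, 0.81 and -5.60, the widest split of the copper list (limma, adjusted p at most 0.0004). NAS1, a nicotianamine synthase of metal transport, was higher by 1.60, 3.23 and 2.43 (limma, adjusted p at most 2.7e-07). Of 12 sulfur limitation genes 2, 3 and 0 were lower and 6, 5 and 9 higher, and APR2, of sulfate reduction, was higher by 0.77, 2.04 and 1.12 (limma, adjusted p at most 4.5e-06). Of 6 galactinol and raffinose genes 2, 2 and 3 were lower and 4, 3 and 2 higher. Of 22 flavonoid genes 12, 1 and 15 were lower and 9, 17 and 5 higher, and of 6 salicylic acid genes 4, 1 and 0 were lower and 0, 1 and 6 higher. PR1, a defence protein induced by salicylic acid, was higher in ccr by 4.33 (limma, adjusted p = 8.3e-08), with differences of 0.01 in ccrfer and 0.48 in labelled fer (limma, adjusted p = 0.98 and 0.14).

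The regulators and kinases of the set were of low to moderate level. RL2, RL5 and RL6 are small single-MYB proteins of the RADIALIS-like family, 3 genes of 1 family on separate loci. RL6 had FPKM 4.08, 6.37 and 2.94 in ccrfer, 7.90, 3.39 and 7.20 in labelled fer and 3.97, 5.80 and 5.06 in ccr, against 49.5, 52.0 and 53.9 in WT. RL2 had 1.63, 3.01 and 2.08 in ccrfer, 0.433, 0.795 and 0 in labelled fer and 1.84, 3.06 and 2.74 in ccr, against 22.9, 23.8 and 23.2 in WT. RL6 overlapped across the mutants, whereas RL2 was lowest in labelled fer (-1.36, SE 0.23, for labelled fer minus ccr; limma, adjusted p = 0.00052). RL5 stayed at or below FPKM 1.19 in the mutants, against 8.10 to 8.95 in WT. WRKY54, a WRKY factor that holds back senescence in leaves, had 3.22, 2.44 and 1.80 in ccrfer, 3.59, 3.10 and 5.74 in labelled fer and 4.91, 4.79 and 6.15 in ccr, against 27.5, 27.3 and 27.1 in WT. It was lower in ccrfer than in ccr, with a difference of -0.86 (SE 0.19; limma, adjusted p = 0.0074). That call was lost with the AT2G01021 level as a covariate, at -0.75 (limma, adjusted p = 0.088).

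Of the kinases, 3 belong to the CIPK family, which calcium sensors of the CBL type bring to membranes. CIPK25 had FPKM 5.14, 3.18 and 6.46 in ccrfer, 1.77, 1.65 and 1.53 in labelled fer and 13.2, 13.3 and 14.9 in ccr, against 59.3, 59.4 and 61.4 in WT. Its mutants formed 3 separate levels, and labelled fer minus ccr was -2.48 (SE 0.17; limma, adjusted p = 3e-07). CIPK17 stayed at or below 0.392 in every mutant library, against 5.24, 6.57 and 6.30 in WT. CIPK20 had 0.514, 0.864 and 1.29 in ccrfer, 0.659, 0.987 and 0.460 in labelled fer and 0.0471, 0.149 and 0.229 in ccr, against 7.56, 7.86 and 8.04 in WT. It was lowest in every ccr library.

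Peroxidases and redox proteins held the second widest gap of the set. AT5G19890, annotated in the peroxidase superfamily, had FPKM 0, 0.301 and 0 in ccrfer, 1.04, 0.362 and 0.670 in labelled fer and 0.344, 0.227 and 0.0589 in ccr, against 45.8, 43.7 and 43.6 in WT. It stood at 0.226% of its WT mean in ccrfer, 1.56% in labelled fer and 0.473% in ccr. AT1G49570, another gene with that annotation, did not pass 0.802 in any mutant, against 8.39 to 9.62 in WT. SUFE2, a protein of iron-sulfur cluster assembly, had 8.11, 8.02 and 5.39 in ccrfer, 2.78, 3.29 and 3.30 in labelled fer and 7.65, 7.12 and 6.60 in ccr, against 47.1, 46.9 and 43.8 in WT. It was lowest in labelled fer with no overlap. IGMT4, a methyltransferase of indole glucosinolates, had 33.6, 31.8 and 30.4 in ccrfer, 21.5, 22.6 and 20.6 in labelled fer and 34.4, 35.2 and 36.3 in ccr, against 159, 161 and 149 in WT.

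Genes of the set that neighbour each other came in 5 pairs. AT4G03157 and AT4G03156 lie on the same strand of chromosome 4, 168 bases apart. AT4G03157 had FPKM 0 in all ccrfer and labelled fer libraries and 0, 2.06 and 0 in ccr, against 54.9, 57.2 and 103 in WT, the widest gap of the set. AT4G03156 was listed at 0 in all 9 mutant libraries, against 8.59, 9.26 and 11.2 in WT. AT4G08190 on the same chromosome was listed at 0 in all 9 as well, against 5.28, 3.93 and 3.11 in WT.

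AT2G47880, a glutaredoxin family protein, and AT2G47885 overlap on opposite strands of chromosome 2. AT2G47880 had FPKM 0.299, 0.577 and 0 in ccrfer, 1.43, 0.880 and 1.59 in labelled fer and 0.712, 0.739 and 0.698 in ccr, against 18.2, 20.8 and 22.9 in WT. AT2G47885 had 2.05, 0 and 0 in ccrfer, 14.95, 14.0 and 3.40 in labelled fer and 0.376, 1.00 and 0.891 in ccr, against 100.2, 72.2 and 66.4 in WT. Both were highest among mutants in labelled fer. The library kit keeps strand, but the sources used here do not say whether the counting did, so reads of this pair may have been shared between them. Of the 85 genes, 19 overlapped another annotated gene.

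AT1G70680, annotated as a caleosin of lipid droplets, also lay among the 10 widest gaps, at FPKM 0.258, 0.539 and 0 in ccrfer, 0.330, 1.51 and 0 in labelled fer and 0.149, 0.319 and 0.191 in ccr, against 16.7, 16.1 and 19.0 in WT. AT1G23110, annotated as a fold protein, had at most 0.488 in the mutants, against 12.02 to 13.8 in WT.

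The remaining pairs were looser. RL2 and GRP7 lie 4386 bases apart on chromosome 2 with AT2G21655 between them, which was at 0 in all libraries. AT1G23110 and AT1G23130 flank AT1G23120 on chromosome 1, and AT1G23120 was at FPKM 14.4 to 24.0 across all 12 libraries, so the gene between them did not share the pattern. AT1G23130, of a polyketide cyclase and lipid transport family, had 6.04, 7.82 and 8.52 in ccrfer, 26.7, 32.6 and 21.5 in labelled fer and 4.01, 4.82 and 5.23 in ccr, against 129, 121 and 124 in WT. AT4G16000 and AT4G16008, both uncharacterized, lie 3015 bases apart on opposite strands of chromosome 4. AT4G16000 was at most FPKM 5.10 in the mutants, against 22.8 to 27.4 in WT, and AT4G16008 at most 4.001, against 16.2 to 20.7 in WT. By chromosome the set held 22, 18, 10, 14 and 21 genes on chromosomes 1 to 5, or 0.458%, 0.639%, 0.276%, 0.510% and 0.492% of the tested genes there. Annotated gene length had a median of 1806 bases in the set and 2402 bases among all tested genes.

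The mutants were compared with one another, since the rule set no order among them. It did use their values, because each mutant mean and each mutant library had to lie below WT. This bounded how high any mutant could be, so these comparisons are not free of the selection. Moreover, 11 of the 85 genes reached FPKM 1 in no mutant library, so they passed the filter through WT alone. Genes that reached it in only 1 or 2 mutant libraries, such as CIPK20 and FKF1, also passed only with the WT libraries. AT4G03156 and AT4G08190 were at 0 in all 9 mutant libraries and could not be called, yet they count among the 85 below. These points limit the comparison of shares with all tested genes. In ccrfer minus ccr, 16 of the 85 genes were higher and 11 lower, or 31.8%, against 20.5% of all tested genes, 10.4% higher and 10.1% lower (limma on log2(FPKM + 1), adjusted p under 0.05). Without ccr replicate 1 the counts were 8 higher and 10 lower, with 7.35% of all tested genes higher and 7.01% lower. They were 8 and 6 when AT2G01021 entered the fit as a covariate (6.56% and 5.98% of all), and 8 and 10 with the 9 mutant libraries fitted alone (8% and 7.72% of all). In ccrfer minus labelled fer, 22 were higher and 16 lower, or 44.7%, against 40.6% of all (19.3% higher and 21.3% lower). In labelled fer minus ccr, 15 were higher and 15 lower, or 35.3%, against 39% of all (20.5% higher and 18.5% lower). The median differences over the set were 0.04, 0.00 and 0.04, and those over all genes were 0.00, -0.01 and 0.00. Of the called genes, 6, 18 and 16 differed by 2-fold or more in these comparisons. The matching shares of all tested genes were not counted, so nothing particular to the set is read from these counts. Each comparison shares libraries with the other ones, and the comparisons with labelled fer rest on libraries that did not match their label. The median SE was 0.19 in the set and 0.14 over all tested genes.

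By pattern, 36 of the 85 genes (42.4%) were called in none of the 3 comparisons, against 45.7% of all tested genes. The set had 12 genes called in 1 comparison, 28 in 2 and 9 in all 3, or 14.1%, 32.9% and 10.6%, against 16.5%, 29.9% and 7.92% of all. In labelled fer 15 genes (17.6%, against 11.6% of all) were lower than in both other mutants, and 6 (7.06%, against 14.0% of all) were higher than in both. In ccrfer 8 genes (9.41%, against 4.71%) were higher than in both other mutants and 5 (5.88%, against 5.12%) were lower. In ccr 4 genes (4.71%, against 5.05%) were higher and 8 (9.41%, against 5.27%) were lower. These shares are descriptions, and nothing particular to the set is read from them.

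The genes lowest in labelled fer included several that were well above FPKM 1 in most mutant libraries. MEE14 had FPKM 6.98, 6.57 and 7.03 in ccrfer, 2.31, 2.09 and 2.40 in labelled fer and 10.4, 10.7 and 12.1 in ccr, against 59.7, 68.2 and 65.4 in WT. It stood at 3 levels, with labelled fer minus ccr at -1.88 (SE 0.09; limma, adjusted p = 1.7e-08). AT3G62550, of a family of adenine nucleotide hydrolases, had 9.97, 9.02 and 9.30 in ccrfer, 3.88, 4.44 and 2.73 in labelled fer and 14.3, 15.9 and 16.1 in ccr, against 85.1, 83.3 and 82.3 in WT. Its order of mutants was the same as for MEE14 and CIPK25. AT5G39520 had 9.83, 13.5 and 18.7 in ccrfer, 2.25, 2.04 and 3.44 in labelled fer and 14.2, 15.4 and 14.7 in ccr, against 75.0, 74.0 and 72.5 in WT, and ccrfer overlapped ccr. Its ccrfer minus labelled fer difference was 2.05 (SE 0.19; limma, adjusted p = 5.3e-06). AT1G11210, a protein with a domain of unknown function, had 5.72, 5.55 and 5.42 in ccrfer, 1.24, 1.24 and 0.255 in labelled fer and 5.97, 4.57 and 3.88 in ccr, against 54.3, 49.99 and 48.9 in WT. DJC76, a DnaJ-type chaperone, stood highest in ccrfer, at 8.87, 9.29 and 11.02 there, 2.96, 1.12 and 3.13 in labelled fer and 4.76, 5.30 and 5.42 in ccr, against 55.8, 57.9 and 54.2 in WT.

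The genes highest in labelled fer were fewer. AT1G23130 exceeded ccr there by 2.28 (SE 0.15) and AT2G47885 by 2.55 (SE 0.50) on the log2 scale (limma, adjusted p = 2.3e-07 and 0.0018). GDPD1 exceeded ccr by 1.01 (SE 0.11) and AT4G16000 by 1.26 (SE 0.33; limma, adjusted p = 2.7e-05 and 0.01). Against ccr, ccrfer was higher for AT2G25625 by 1.30 (SE 0.14) and for PHO1;H1 by 0.90 (SE 0.12; limma, adjusted p = 3.4e-05 and 0.00021). AT2G25625, annotated as like a histone deacetylase, had FPKM 6.29, 6.42 and 6.10 in ccrfer, 4.001, 3.94 and 4.71 in labelled fer and 2.54, 1.91 and 1.52 in ccr, against 41.8, 37.0 and 32.3 in WT. Its mutants did not overlap. Lower in ccrfer than in ccr, besides PAP17 and CEP1, were CIPK25, at -1.36 (SE 0.17), and AT1G19960, at -1.02 (SE 0.11; limma, adjusted p = 0.0001 and 4.1e-05).

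**Figure D5:**
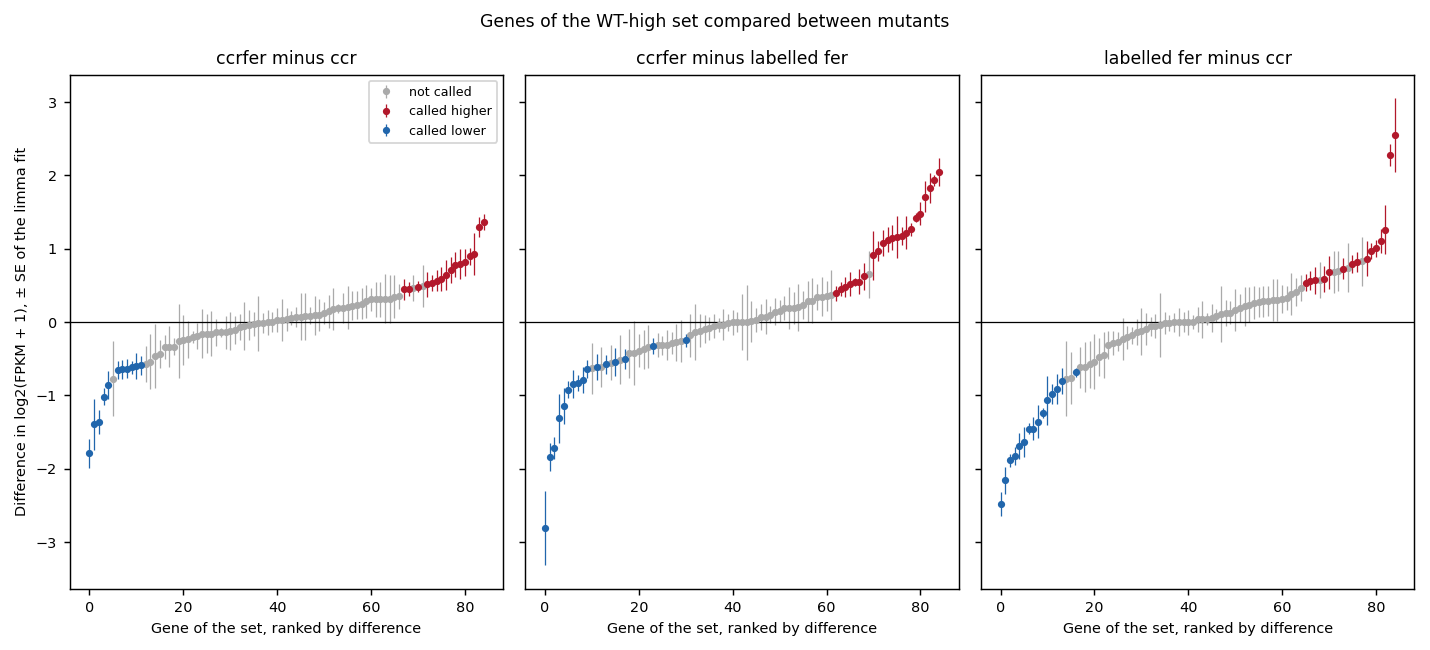
Difference in log2(FPKM + 1) ± SE of the limma fit (y axis) for the 85 genes, ranked within each panel (x axis), in ccrfer minus ccr, ccrfer minus labelled fer and labelled fer minus ccr. Red and blue points passed adjusted p under 0.05 (16 higher and 11 lower, 22 and 16, 15 and 15), and the widest spread is in the 2 panels with the labelled fer libraries.

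At the edge of the set, genes just inside and just outside had much the same values. AT3G62960, annotated as a thioredoxin-fold protein, was the last inside, with a smallest difference of 2.00 and mean FPKM of 22.4 in ccrfer, 19.8 in labelled fer and 15.3 in ccr, against 92.2 in WT. The next inside were AT1G08310 at 2.04, CIPK25 at 2.05, SPT5-1 (AT2G34210) at 2.05 and AT2G14095 at 2.05. Just outside stood CYP76C1, PAP8, AT1G67148 and AT4G16880, each at 1.98, and AT1G17030 at 1.95. CYP76C1 averaged FPKM 0.836 in ccrfer, 0.944 in labelled fer and 0.653 in ccr, against 6.65 in WT. AT2G15029 and AT2G28426 had the margin, at 2.85 and 2.14, but a mutant library overlapped WT. In all, 47 genes had a smallest difference under 2.5, 17 had 3 or more and 3 had 4 or more.

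The authors' deposited table of 313 genes held none of the 85, and each of its genes was higher in ccr than in WT by the authors' log2 ratio.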

How the data were processed

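RNA-seq libraries were made with a stranded kit and sequenced as pairs of 75-base reads, per the labels' protocols. Alignment used TopHat2 2.1.1 and Bowtie2 2.3.2.0 on TAIR10, and expression used Cufflinks 2.2.1 and Cuffdiff, per the submitters' processing notes. The authors deposited FPKM values, a count of reads and a mapped fraction per library, and a table of log2 ratios and p-values for 313 genes. Whether FPKM values were also scaled between libraries, or strand was used, is not given in the sources used here. The depth behind each gene's FPKM was unknown.

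FPKM values were transformed as log2(FPKM + 1), which understates differences of low genes. Genes that reached FPKM 1 in 3 libraries or more were fitted with limma 3.58.1 in R 4.3.3 over all 12 libraries, with 1 mean per genotype and a trend with expression. Two-sided p-values of the 18428 genes were adjusted together (Benjamini-Hochberg), with calls under 0.05. The procedure was tested on simulated data. Coordinates of 312 of 312 deposited genes overlapped the TAIR10.1 annotation, which gave gene names, products and promoters for all 85 genes. Motifs were counted in 300-base windows.

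The genes of the set and the 13 pathway and 8 marker lists were chosen with earlier results of these data known. Named genes were those with the 15 highest WT means, the 10 widest gaps, the 5 nearest the margin on each side, list genes, neighbours and symbol families, and per comparison of mutants the 5 largest called differences each way. From each pathway list, up to 4 further genes with the largest mean difference from WT qualified. Some other genes (among them XCP1, PHR1, PHO1 and CCA1) were named after their values had been seen. Alternatives were another pseudocount, margin, filter and scaling, a replicate block, a covariate and leaving out single libraries. Same-numbered replicates did not deviate together (18 pairs of libraries, correlations from -0.129 to 0.191), so the numbers were taken to name libraries only.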

Additional observations from a re-analysis of the deposited data

How the results depend on the processing

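The set held 85 genes with the pseudocount of 1 and margin of 2. It held 156 genes with a pseudocount of 0.1, 190 with a margin of 1.5 and 17 with a margin of 3. Median-of-ratios scaling gave 89 genes, no filter gave 85, and leaving out single libraries gave 72 to 87. All 85 remained under that scaling. They also remained under the margin of 1.5 and the smaller pseudocount, but this was certain in advance. A lower margin keeps every gene, and a smaller pseudocount only widens the gap of genes whose WT libraries all lie above the others. In ccrfer minus ccr, 16 genes were higher. The count was 8 with the AT2G01021 level as a covariate and 8 with the 9 mutant libraries fitted alone. The lower genes numbered 6 with that covariate, against 11. Leaving out single libraries gave 8 to 16 higher and 9 to 14 lower genes. The range was 19 to 27 and 13 to 20 in ccrfer minus labelled fer, and 12 to 22 and 14 to 18 in labelled fer minus ccr. Of these single-library fits, shares of all tested genes were counted only for the one without ccr replicate 1. In promoters without the first 50 bases of the gene, the G-box stood in 4 windows, against 7. The cause of these changes was not tested. Among the differences of single named genes, 584 values under an alternative kept direction and call, 16 lost the call (PRR5, CEP1 and WRKY54 in ccrfer minus ccr and AT4G16000 in labelled fer minus ccr) and 0 turned sign.

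With the replicate number as a block, 15 genes were higher and 10 lower in ccrfer minus ccr, 22 and 13 in ccrfer minus labelled fer, and 15 and 15 in labelled fer minus ccr. Pathway genes outside the set were 42 higher and 120 lower in ccrfer than in WT, 63 higher and 100 lower in labelled fer, and 48 and 113 in ccr under the block. Shares of all tested genes were not counted under the block, so these counts are not set against a background. The block changed no call among the largest differences that were checked.

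The depth behind each FPKM was unknown, so counting error was not estimated.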
